A study of Mus musculus with 12 samples.

Results

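The EGF family ligands and the ERBB receptors were described across the tumours of a mouse model of head and neck squamous cell carcinoma. The members were chosen by gene symbol: the receptors Egfr, Erbb2 and Erbb3 and the ligands Tgfa, Nrg1, Hbegf, Areg, Ereg, Btc and Epgn. They are 10 of the 55487 gene identifiers in the count table, and all 10 were among the 16974 genes that passed a filter on low counts. Tumours were grown from Sq-1979, a mouse line of this carcinoma, injected subcutaneously, in Matrigel, into C3H/HeN males aged 6 weeks. From day 20 the mice received vehicle, regorafenib at 5 mg/kg/day, an anti-PD1 antibody, or regorafenib with anti-PD1 (the combination). The labels give daily oral gavage for the treatments and no dose for the antibody. Regorafenib is an oral inhibitor of several kinases, among them the VEGF receptors and RAF, and anti-PD1 blocks an inhibitory receptor of T cells. Polyadenylated RNA of bulk tumour was sequenced in 3 libraries per group, 12 in all, with 22591835 to 28209036 counts each. The labels do not say whether the libraries of a group came from separate mice, so p-values measure the spread between these samples, which may be technical. The model rests on 1 cell line, and host stroma and immune cells share the RNA with the carcinoma cells. The 18 squamous markers, Krt5 and Krt14 among them, were detected, and their summed level was 15720 to 22502 CPM (counts per 1000000 counts, TMM-scaled) over the 12 libraries.

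EGF family ligands are made as membrane-bound precursors, which metalloproteases such as ADAM17 cut to release the active growth factor. Ligand binding pairs the receptors: EGFR binds EGF, TGFA, AREG, EPGN, BTC, HBEGF and EREG, ERBB3 binds some neuregulins, NRG1 among them, and ERBB2 has no known ligand and acts as a partner. The pairs signal through RAS, ERK and PI3K, and squamous carcinomas of the head and neck often depend on EGFR.

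The receptors had the most RNA per kilobase of the 10 members, and no receptor passed the test in any comparison run. Levels of different genes are compared as CPM per kilobase of exon (CPM per kb). In vehicle tumours Egfr was at 30.0 ± 2.34 CPM per kb and Erbb2 at 30.0 ± 0.815 (SD, n = 3), and their libraries overlapped. Erbb3 was lower, at 10.4 ± 2.49 CPM per kb, below every vehicle value of Egfr and Erbb2. Next came the ligands Tgfa at 6.27 ± 0.672 and Nrg1 at 6.09 ± 0.889 CPM per kb, which overlapped each other and lay below Erbb3. Hbegf followed at 1.47 ± 0.298 CPM per kb, with Areg at 1.01 ± 0.397 and Epgn at 0.754 ± 0.231. Ereg, at 0.342 ± 0.0513, and Btc, at 0.253 ± 0.0101, were the lowest members. In vehicle libraries Areg overlapped both Hbegf and Epgn, while Epgn lay above Ereg and Ereg above Btc.

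**Figure D1:**
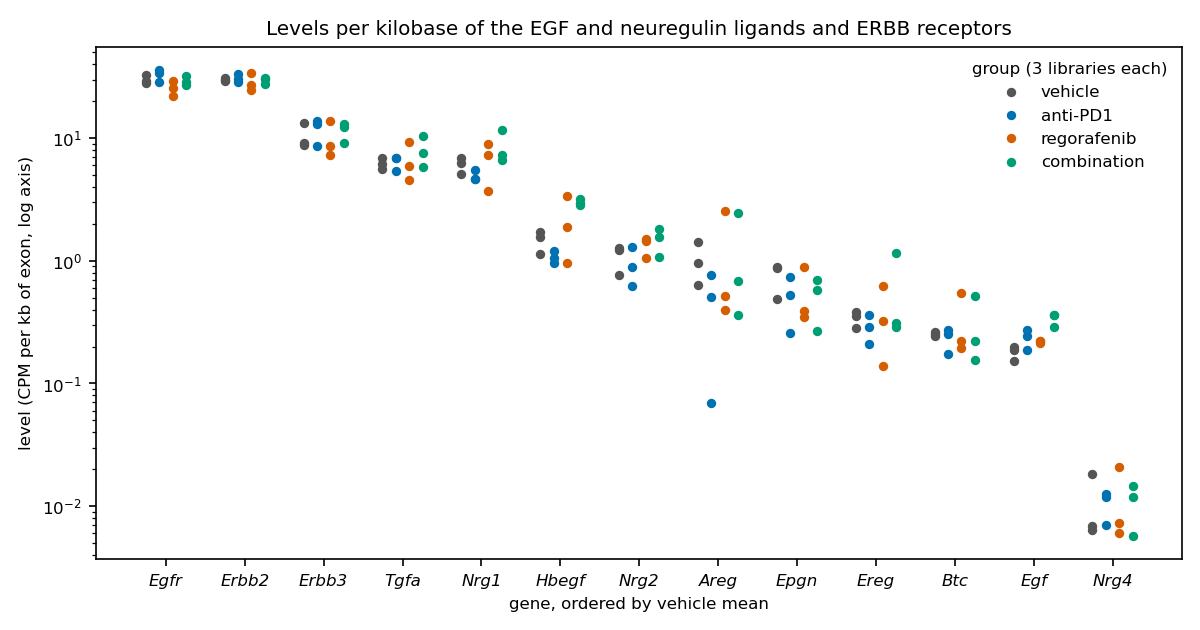
Level of 13 family genes in CPM per kb of exon (log axis), with 1 point per library coloured by group and genes ordered by the vehicle mean. The 3 receptors lie highest, and Nrg4, which was not tested, lies lowest of the genes drawn; Nrg3 and Erbb4, at 0 or 1 count, are left off.

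In GRCm38 with the GENCODE M21 annotation, Egfr lies at chr11:16752203-16918158 and Erbb2 at chr11:98412470-98437716, both on the plus strand, and Erbb3 at chr10:128567523-128589652 on the minus strand. Tgfa lies at chr6:86195223-86275719 on the plus strand and Nrg1 at chr8:31814551-32884029 on the minus strand. Exons of opposite-strand genes share 9 bases with Erbb2, 118 with Tgfa, 482 with Nrg1 and 141 with Ereg, and reads there cannot be assigned with certainty, since the strand setting of the counting is not given in the sources used here.

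EGFR is the receptor for most of the ligands described here. Egfr stood at 369, 317 and 333 CPM under vehicle, 405, 385 and 323 CPM under anti-PD1, 249, 293 and 334 CPM under regorafenib, and 368, 324 and 306 CPM under the combination. The lowest values were those of regorafenib 1 and 2, and the groups overlapped. The main comparison here, called the average regorafenib effect, sets the mean of the regorafenib and combination groups against the mean of the vehicle and anti-PD1 groups. It was tested with edgeR's quasi-likelihood F test, two-sided, with Benjamini-Hochberg adjustment over the 16974 genes and a threshold of 0.05. For Egfr its log2 fold change was -0.19 (SE 0.0917, adjusted p = 0.211), with a 95% interval of 0.763-fold to 1.01-fold.

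ERBB2 is the shared partner of the other receptors. Erbb2 stood at 152, 161 and 156 CPM under vehicle, 158, 174 and 149 CPM under anti-PD1, 130, 142 and 176 CPM under regorafenib, and 161, 159 and 143 CPM under the combination. The regorafenib group held both the lowest and the highest library. The average regorafenib effect was a log2 fold change of -0.06 (adjusted p = 0.66), with an interval of 0.853-fold to 1.08-fold.

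ERBB3, a receptor of NRG1, has little kinase activity of its own. Erbb3 stood at 54.5, 79.8 and 53.2 CPM under vehicle, 83.5, 78.9 and 52.4 CPM under anti-PD1, 52.0, 44.1 and 82.3 CPM under regorafenib, and 79.1, 74.3 and 54.9 CPM under the combination. Each group held libraries at 54.9 CPM or lower and libraries at 79.1 CPM or higher, and the groups overlapped. The average regorafenib effect was a log2 fold change of -0.06 (adjusted p = 0.876), with an interval of 0.722-fold to 1.28-fold. Against vehicle, the combination gave log2 fold changes of -0.03 for Egfr, -0.02 for Erbb2 and 0.15 for Erbb3, with intervals of 0.801-fold to 1.20-fold, 0.835-fold to 1.17-fold and 0.737-fold to 1.67-fold.

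**Figure D2:**
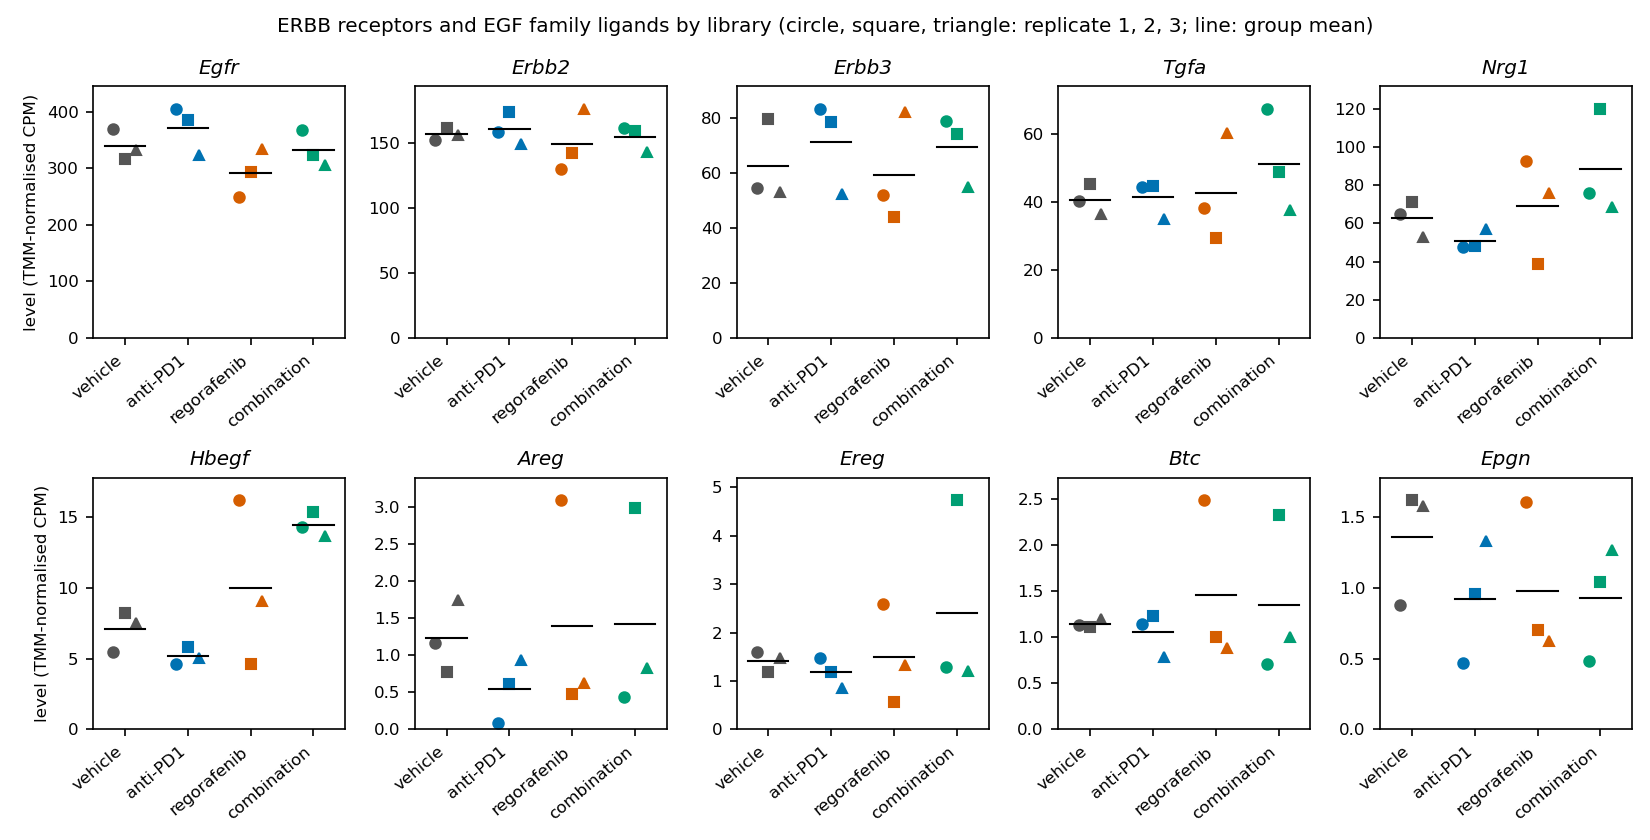
Level in CPM (TMM-normalised, linear axis from 0) of the 10 members in each library, with circle, square and triangle for replicates 1, 2 and 3 and a line at the group mean. The 3 combination libraries of Hbegf lie above all vehicle and anti-PD1 libraries, and regorafenib 1 and combination 2 hold the highest values of Areg, Ereg and Btc.

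TGFA and NRG1 were the ligands with the most RNA per kb. Tgfa, a ligand of EGFR made by epithelial cells, stood at 40.3, 45.2 and 36.5 CPM under vehicle and at 44.4, 44.6 and 34.8 CPM under anti-PD1. It stood at 38.2, 29.5 and 60.2 CPM under regorafenib and at 67.3, 48.9 and 37.5 CPM under the combination. The highest values, in combination 1 and regorafenib 3, came from regorafenib-treated tumours, as did the lowest, in regorafenib 2. The average regorafenib effect for Tgfa was a log2 fold change of 0.19 (SE 0.185, adjusted p = 0.545).

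Nrg1, a neuregulin that binds ERBB3, stood at 64.9, 71.2 and 53.1 CPM under vehicle and at 47.8, 48.4 and 56.9 CPM under anti-PD1. It stood at 92.5, 38.5 and 76.0 CPM under regorafenib and at 76.0, 120 and 68.8 CPM under the combination. Regorafenib 2 was the lowest of the 12 libraries, and the combination libraries lay above all 3 anti-PD1 libraries. The average regorafenib effect was a log2 fold change of 0.46 (SE 0.208, unadjusted p = 0.0493, adjusted p = 0.177 by edgeR), which did not pass the threshold. Leaving out 1 library gave estimates of 0.32 to 0.61 and adjusted p of 0.0374 to 0.377, under the threshold only without regorafenib 2. Without regorafenib 1 and combination 2 the estimate was 0.18 (adjusted p = 0.577). The combination against anti-PD1 gave a log2 fold change of 0.79 (1.73-fold, SE 0.295, adjusted p = 0.181 by edgeR).

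Hbegf, whose product is a heparin-binding ligand of EGFR and ERBB4, was the 1 of 10 members called in the average regorafenib effect, which called 9.49% of all tested genes. Its vehicle libraries stood at 5.5, 8.26 and 7.56 CPM and its anti-PD1 libraries at 4.62, 5.84 and 5.06 CPM. Its regorafenib libraries stood at 16.2, 4.66 and 9.08 CPM and its combination libraries at 14.3, 15.4 and 13.7 CPM. All 3 combination libraries and regorafenib 1 lay well above the 6 libraries without regorafenib, regorafenib 3 lay just above them, and regorafenib 2 lay among the lowest. The average regorafenib effect was a log2 fold change of 0.99, a 1.98-fold higher level (SE 0.249, 95% interval 1.36-fold to 2.91-fold, adjusted p = 0.0357 by edgeR).

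The call on Hbegf depended on single libraries. It was kept in 3 of 12 fits that each left out 1 library: those without regorafenib 1, regorafenib 2 or combination 3. It was lost without any 1 of the vehicle or anti-PD1 libraries, regorafenib 3, combination 1 or combination 2, with log2 fold changes of 0.72 to 1.16 and adjusted p of 0.0108 to 0.0887 over the 12 fits. With regorafenib 1 and combination 2 both left out, a choice made after their high ligand levels were seen, the log2 fold change was 0.69 (adjusted p = 0.0906 by edgeR).

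The separate comparisons of Hbegf did not pass the adjusted threshold by edgeR over the 12 libraries. The combination was 2.04-fold higher than vehicle (1.03 on the log2 scale, SE 0.351, adjusted p = 0.0931 by edgeR) and 2.8-fold higher than anti-PD1 (1.48 on the log2 scale, SE 0.356, adjusted p = 0.0609 by edgeR). In both, the 3 combination libraries lay above the 3 others. By DESeq2 both passed (adjusted p = 0.0367 against vehicle and 0.0024 against anti-PD1), and with the 6 compared libraries alone edgeR's adjusted p was 0.0209 against vehicle and 0.157 against anti-PD1. Regorafenib alone against vehicle gave a log2 fold change of 0.49 (adjusted p = 0.547), which was -0.05 without regorafenib 1. Anti-PD1 alone against vehicle gave -0.46 (adjusted p = 0.865), and the interaction term, which asks whether regorafenib acted differently with anti-PD1, was 0.99 (unadjusted p = 0.0709, adjusted p = 1.0 by edgeR). These comparisons share libraries with each other.

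The summed levels of fibroblast, neutrophil and squamous markers did not overlap between vehicle tumours and the combination, in which Hbegf was high. Those of the macrophage, T and NK cell, endothelial, mast cell and Schwann cell markers overlapped. The summed level of the 12 fibroblast markers was 25455 to 33918 CPM under vehicle, 6855 to 34060 CPM under anti-PD1, 6004 to 31629 CPM under regorafenib and 5192 to 13541 CPM under the combination. In replicate order, these markers summed to 33918, 25455 and 32274 CPM under vehicle and to 6855, 31380 and 34060 CPM under anti-PD1. The sums were 12030, 31629 and 6004 CPM under regorafenib and 6312, 5192 and 13541 CPM under the combination. Hbegf was lowest in anti-PD1 1 (4.62 CPM) and regorafenib 2 (4.66 CPM) and highest in regorafenib 1 (16.2 CPM) and combination 2 (15.4 CPM). The 8 neutrophil markers summed to 74.2 to 91.4 CPM under vehicle and to 93.0 to 298 CPM under the combination, and the 18 squamous markers to 19408 to 22502 CPM and 16200 to 19372 CPM. For the squamous list the median log2 fold change of the combination against vehicle was -0.02. Its marker Krt14 averaged 4680 CPM under vehicle and 2894 CPM under the combination. The part of these cells in the Hbegf result was not tested. In bulk tumour, fewer cells of a type and less RNA per cell cannot be told apart.

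Areg, Ereg, Epgn and Btc form a gene cluster on chromosome 5 and encode ligands of EGFR that are scarce in these tumours. In the same annotation, Epgn lies at chr5:91027464-91035215, Ereg at chr5:91074622-91093646 and Areg at chr5:91139599-91148432, on the plus strand. Btc lies at chr5:91357261-91402994 on the minus strand. The 4 are the only protein-coding genes annotated in the span from the first to the last. The promoters of Areg and Btc are shown as a description, and a link between their sequences and the levels was not tested. They are the 250 bases upstream in the RefSeq table for GRCm38.p6, 5′ to 3′ on the gene's strand, with motif matches in capitals.
Areg (chr5:91139349-91139598, plus strand): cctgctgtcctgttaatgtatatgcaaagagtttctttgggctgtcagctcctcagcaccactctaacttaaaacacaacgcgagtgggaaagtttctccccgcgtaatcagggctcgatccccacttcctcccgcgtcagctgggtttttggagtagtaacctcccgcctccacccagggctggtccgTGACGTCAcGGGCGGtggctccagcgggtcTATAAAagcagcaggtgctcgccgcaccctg
Btc (chr5:91402995-91403244, minus strand): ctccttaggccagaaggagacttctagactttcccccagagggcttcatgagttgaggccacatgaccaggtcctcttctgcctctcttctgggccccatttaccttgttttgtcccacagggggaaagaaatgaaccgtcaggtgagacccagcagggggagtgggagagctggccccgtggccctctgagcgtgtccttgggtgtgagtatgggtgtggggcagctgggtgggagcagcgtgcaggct

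The motifs searched, on both strands, were TATAAA, the cyclic AMP response element TGACGTCA, the AP-1 motif TGANTCA, the GC box GGGCGG and CCAAT. The Areg window held TGACGTCA from 61 bases, GGGCGG from 52 bases and TATAAA from 31 bases before the start, none overlapping another. The Btc window held no match, which says only that these letters are not in it. Among 32851 promoter windows of the same length, 1.5% held TGACGTCA, 12.4% TATAAA, 32.7% GGGCGG, 33.8% CCAAT and 6.7% TGANTCA. A match describes the sequence and is not evidence of binding.

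Areg, amphiregulin, is an EGFR ligand of epithelium and of some immune cells. It stood at 1.17, 0.775 and 1.74 CPM under vehicle, 0.0849, 0.614 and 0.934 CPM under anti-PD1, 3.09, 0.484 and 0.628 CPM under regorafenib, and 0.442, 2.99 and 0.833 CPM under the combination. Regorafenib 1 and combination 2 were the highest, and anti-PD1 1 rested on 2 counts. Its largest value was 36.4 times its smallest, the widest range of the 10 members.

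Ereg, epiregulin, stood at 1.59, 1.18 and 1.47 CPM under vehicle, 1.48, 1.19 and 0.862 CPM under anti-PD1, 2.58, 0.572 and 1.33 CPM under regorafenib, and 1.28, 4.73 and 1.20 CPM under the combination. The same libraries, regorafenib 1 and combination 2, were again the highest. Btc, betacellulin, stood at 1.11 to 1.20 CPM under vehicle and 0.79 to 1.23 CPM under anti-PD1. It stood at 2.49, 1.01 and 0.886 CPM under regorafenib and at 0.707, 2.33 and 1.01 CPM under the combination, so that the other 4 treated libraries lay below the vehicle libraries. Epgn, epigen, ranged from 0.881 to 1.62 CPM under vehicle, from 0.467 to 1.33 CPM under anti-PD1, from 0.628 to 1.61 CPM under regorafenib and from 0.486 to 1.27 CPM under the combination.

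The 4 clustered genes did not pass the test in the average regorafenib effect. Log2 fold changes were 0.78 for Areg (95% interval 0.642-fold to 4.56-fold, adjusted p = 0.466), 0.56 for Ereg (adjusted p = 0.427), 0.36 for Btc (adjusted p = 0.535) and -0.23 for Epgn (adjusted p = 0.722). The 4 genes rested on 2 to 136 counts per library. With regorafenib 1 and combination 2 left out, the estimates turned to -0.45 for Areg, -0.24 for Ereg and -0.28 for Btc. Against vehicle, the combination gave 0.23 for Areg, 0.77 for Ereg, 0.25 for Btc and -0.54 for Epgn, and none passed.

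Regorafenib 1 and combination 2 were high for most of the 7 ligands but not for all. For Tgfa, regorafenib 1 (38.2 CPM) lay below the median of the libraries (42.4 CPM). How often these libraries rank highest over all genes was not tested, so the pattern may not be particular to the ligands. Regorafenib 1 was among the highest 2 of the 12 libraries for 6 of the 7 ligands, and combination 2 for 5 of 7. Anti-PD1 1 and regorafenib 2 were each among the lowest 2 for 4 of 7. The receptors did not follow: regorafenib 1 was the lowest library for Egfr and Erbb2. The 7 ligands summed to 16.2 ± 1.26 CPM per kb under vehicle, 13.8 ± 0.502 under anti-PD1, 17.7 ± 6.49 under regorafenib and 22.0 ± 4.94 under the combination (SD, n = 3).

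**Figure D3:**
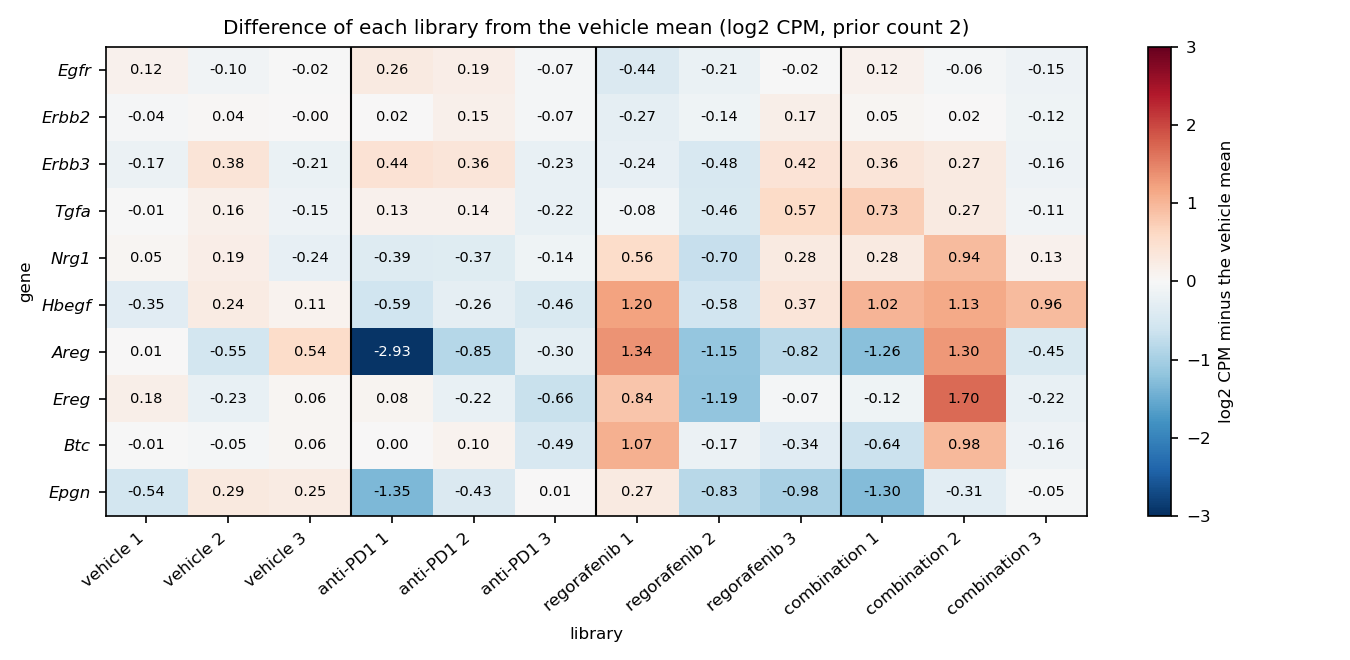
Difference of each library from the vehicle mean, in log2 CPM with a prior count of 2, for the 10 members (rows) in the 12 libraries (columns). Regorafenib 1 and combination 2 are high from Nrg1 to Btc, and the lowest value is Areg in anti-PD1 1, at -2.93.

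Ligands and receptors that were not members completed the family. Egf, the namesake ligand of EGFR, stood at 2.10, 1.73 and 2.24 CPM under vehicle, 3.05, 2.11 and 2.73 CPM under anti-PD1, 2.49, 2.51 and 2.4 CPM under regorafenib, and 4.11, 4.07 and 3.26 CPM under the combination. The combination libraries lay above all others. Egf rose in the combination against vehicle, with a log2 fold change of 0.91 (1.88-fold, SE 0.2, adjusted p = 0.0295 by edgeR), and the call was lost without any 1 vehicle library, combination 1 or combination 2, and with no filter on low counts (adjusted p = 0.0629). A pair of opposite-strand genes shares 1107 of its exonic bases. Nrg2, a neuregulin, stood at 1.95 to 5.71 CPM over the 12 libraries, with a log2 fold change of 0.48 (adjusted p = 0.191) in the average regorafenib effect. Erbb4 had 1 count in combination 2 and 0 in the other 11 libraries, Nrg3 had 0 counts in each library and Nrg4 had 1 to 3, so the 3 were not tested. A count of 0 allows up to 3 counts, or 0.104 to 0.132 CPM depending on the library, for counting error alone.

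Across the 8 comparisons, 0 or 1 of the 10 members passed the threshold. In the average regorafenib effect, 1 of 10 was called, higher, where 9.49% of all tested genes were called and 6.16% were called higher, so the share is near the background. At an unadjusted p under 0.05 there were 2 of 10, Hbegf and Nrg1, where 28.0% of all genes passed. DESeq2 called 1, Hbegf, and 16.5% of genes. The combination against vehicle called 0 of 10, where 7.34% of all genes were called. Unadjusted, 1 of 10 passed against 27.9% of genes, and DESeq2 called 1, Hbegf, where it called 15.4% of genes. The combination against anti-PD1 called 0 of 10, where 1.92% of genes were called. Unadjusted, 2 of 10 passed against 19.3% of genes, and DESeq2 called 1, Hbegf, where it called 7.37% of genes. Of the members, 1 of 10 in the first of these comparisons and 2 of 10 in the second had all 3 combination libraries above the 3 others, where 19.6% and 13.0% of all genes did.

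The remaining comparisons called 0 members by edgeR and by DESeq2. These were regorafenib against vehicle (0.00589% of all genes called), anti-PD1 against vehicle (0.0%), the combination against regorafenib (0.0%), the average anti-PD1 effect (0.0%) and the interaction (0.0%). In each, 0 members had an unadjusted p under 0.05, where 14.1%, 5.17%, 5.45%, 8.75% and 2.65% of all genes did. DESeq2 called 2.66%, 0.0295%, 0.0236%, 0.171% and 0.0% of the genes to which it gave an adjusted p, in the same order. In the average regorafenib effect 6 of 10 estimates were above 0, with a median log2 fold change of 0.27 against 0.0 over all tested genes. In the combination against vehicle 7 of 10 were above 0, with a median of 0.24 against 0.02. For the interaction, 10 of 10 were above 0, with a median of 0.37 against -0.0 and a smallest unadjusted p of 0.0709 by edgeR. The combination against regorafenib had 8 of 10 above 0. The combination against anti-PD1 and the average anti-PD1 effect each had 7, regorafenib against vehicle 6 and anti-PD1 against vehicle 4. These counts of signs were not tested. In simulated counts, the test of the average regorafenib effect recovered 58% of 2-fold and 38% of 1.5-fold changes. The test of the combination against vehicle recovered 44% and 10%, so changes of that size can be missed. The changed genes were drawn at random from all tested genes, so these shares do not describe the low counts of the scarce ligands.

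**Figure D4:**
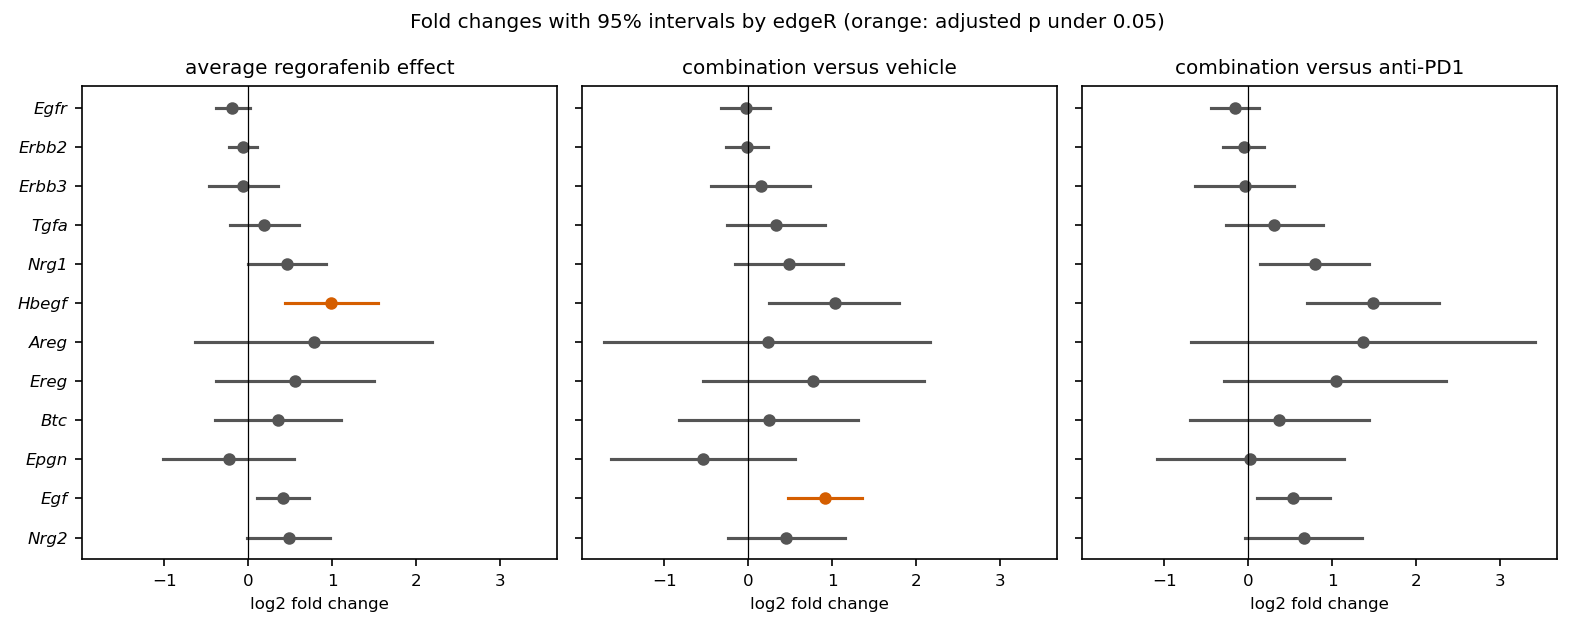
Log2 fold change (point) with its 95% interval (line) for the 10 members and for Egf and Nrg2 in 3 comparisons; orange marks an adjusted p under 0.05 by edgeR. Hbegf passes in the average regorafenib effect and Egf in the combination against vehicle.

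Some members varied together from library to library. Across the 12 libraries, Pearson's r of log2 CPM was 0.84 for Erbb3 and Tgfa (Spearman's rho 0.79), 0.84 for Nrg1 and Hbegf (rho 0.91) and 0.79 for Erbb2 and Erbb3 (rho 0.81). Without regorafenib 1 and combination 2, over 10 libraries, these were 0.83, 0.76 and 0.83. For Ereg and Btc r fell from 0.79 to 0.27, and for Areg and Btc from 0.65 to 0.07, so these rest on the 2 high libraries, while Areg and Epgn kept 0.76 against 0.72. These values describe 12 libraries that share treatments and cell makeup. The genes most like each member in this measure, among 10829 protein-coding genes, included Ids, Sema3c and Pdcl for Egfr (r from 0.942 to 0.968), Lrp5, Kdm3a and Gpi1 for Tgfa (0.965 to 0.981), and Fam160a1, Atp6v0a4 and Aaed1 for Erbb3 (0.939 to 0.944). For Erbb2 they were Rplp0, Hsd17b10 and Rpl7a (0.927 to 0.938). For Nrg1 they were Ptgs2, Prkg2 and Etv4 (0.929 to 0.953), and for Hbegf Dock6, Cbx5 and Hmga1 (0.914 to 0.921). The scarce ligands had Gins3, Cenpt and Adgrl1 for Areg (0.907 to 0.935), Zmat3, Cmtm4 and Slc35g1 for Ereg (0.908 to 0.914), Ccdc141, Has2 and Hmgcll1 for Btc (0.854 to 0.871), and Dtymk, Rnf26 and Haus8 for Epgn (0.928 to 0.949).

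Of 11 genes of ligand shedding and trafficking, 2 rose in the average regorafenib effect and 0 fell, where 6.16% of all tested genes rose and 3.32% fell; the list median was -0.02 against 0.0 over all genes. Both encode iRhom proteins, which carry ADAM17 to the cell surface. Rhbdf2 (iRhom2) stood at 54.2, 51.8 and 54.7 CPM under vehicle, 52.2, 52.6 and 62.2 CPM under anti-PD1, 81.7, 77.2 and 66.1 CPM under regorafenib, and 67.1, 76.0 and 71.0 CPM under the combination. The 6 libraries with regorafenib lay above the 6 without (1.34-fold, 0.42 on the log2 scale, SE 0.0686, adjusted p = 0.00824 by edgeR). Rhbdf1 (iRhom1) stood at 150, 152 and 147 CPM, 119, 133 and 136 CPM, 153, 174 and 176 CPM, and 177, 180 and 161 CPM in the same order. It also did not overlap between the libraries with and without regorafenib (1.22-fold, 0.29 on the log2 scale, SE 0.058, adjusted p = 0.0165 by edgeR), where 2.87% of all genes lay above in this way. Both calls were kept in all 12 fits that left out 1 library. For Adam17 itself the log2 fold change was -0.02 (adjusted p = 0.872), and for Adam12, another metalloprotease, it was -1.46 (adjusted p = 0.0661). In the combination against vehicle, which called 7.34% of all tested genes, 1 of the 11 rose, Rhbdf2, by 0.41 (adjusted p = 0.0341 by edgeR). That call was lost on removal of any 1 vehicle or combination library and with no filter (0.0561).

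Of 18 negative regulators of the receptors, 2 fell in the average regorafenib effect and 0 rose, where 3.32% of all tested genes fell and 6.16% rose. Of the 18 estimates 13 were above 0, with a list median of 0.03, among them Spry1 at 0.85 (adjusted p = 0.079) and Spry2 at 0.39 (adjusted p = 0.137), relatives of Spry4. Spry4, an inhibitor of RAS-ERK signalling whose RNA is itself induced by ERK, stood at 2.89, 4.21 and 4.09 CPM under vehicle and at 2.38, 3.19 and 2.26 CPM under anti-PD1. It stood at 1.52, 0.923 and 1.07 CPM under regorafenib and at 1.46, 0.87 and 0.978 CPM under the combination, below all libraries without regorafenib, as did 1.77% of all genes. It fell by 1.46 on the log2 scale (SE 0.203, adjusted p = 0.00496 by edgeR) and was called in all 12 fits that left out 1 library. Lrig1, which promotes degradation of EGFR and marks epithelial stem cells, stood at 278, 283 and 279 CPM, 194, 324 and 235 CPM, 119, 199 and 195 CPM, and 191, 131 and 176 CPM in the same order. It fell by 0.65 (SE 0.162, adjusted p = 0.0332 by edgeR), and the call was lost on leaving out 1 of the vehicle libraries, of anti-PD1 2 and 3, or combination 2 (adjusted p up to 0.0836), on leaving out regorafenib 1 with combination 2 (0.0756) and with no filter on low counts (0.0582). In the combination against vehicle, which called 7.34% of all tested genes, 1 of the 18 fell and 1 rose. Spry4 fell by 1.76 on the log2 scale (adjusted p = 0.0152) and Cbl, an E3 ligase of EGFR, rose by 0.32 (adjusted p = 0.0368 by edgeR). Both calls were lost on removal of any 1 vehicle library, combination 1 or combination 2, and that on Cbl also of anti-PD1 3 and with no filter (adjusted p = 0.079).

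Of 24 early genes that EGF is known to induce, 3 rose in the average regorafenib effect and 0 fell, where 6.16% of all tested genes rose; the list median was 0.24. Dusp6 and Dusp4, phosphatases of ERK and related kinases, had log2 fold changes of 0.52 (SE 0.11, adjusted p = 0.0196) and 0.71 (SE 0.171, adjusted p = 0.0305 by edgeR). The call on Dusp6 was kept in 8 of 12 fits that left out 1 library and lost on removal of combination 2, anti-PD1 2 or either of vehicle 1 and 2. That on Dusp4 was kept in 4 of 12, those without anti-PD1 1, anti-PD1 3, regorafenib 2 or combination 3. Hmga2, a chromatin protein, stood at 7.13, 4.17 and 5.94 CPM under vehicle, 2.93, 5.3 and 6.64 CPM under anti-PD1, 39.4, 4.0 and 16.5 CPM under regorafenib, and 16.1, 66.3 and 15.8 CPM under the combination. Regorafenib 1 and combination 2, the libraries high in several ligands, were its highest, and regorafenib 2 lay just below the vehicle libraries. Its log2 fold change was 2.26 (SE 0.552, adjusted p = 0.0318 by edgeR), and the call was kept in 4 of 12 such fits, those without regorafenib 2, regorafenib 3, combination 1 or combination 3. With regorafenib 1 and combination 2 both left out it was 1.26 (adjusted p = 0.102), with no filter on low counts the adjusted p was 0.106, and without both libraries Dusp6 and Dusp4 also lost their calls (adjusted p = 0.0777 and 0.104). Etv4, a transcription factor downstream of ERK, was also highest in those libraries, at 48.8 and 59.6 CPM, and differed by 1.27 on the log2 scale (adjusted p = 0.0556), short of the threshold. In the combination against vehicle, which called 7.34% of all tested genes, 1 of the 24 early genes rose: Dusp4, by 0.95 (adjusted p = 0.0431 by edgeR). That call was kept in 6 of 12 fits that left out 1 library. Of 28 receptor adaptors and relay proteins, 0 passed in the average regorafenib effect (list median -0.05). In the combination against vehicle 1 of the 28 fell, against the same 7.34%: Hras, a RAS protein, by 0.43 on the log2 scale (adjusted p = 0.0237 by edgeR). The call on Hras was again lost on removal of any 1 vehicle library, combination 1 or combination 2.

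**Figure D5:**
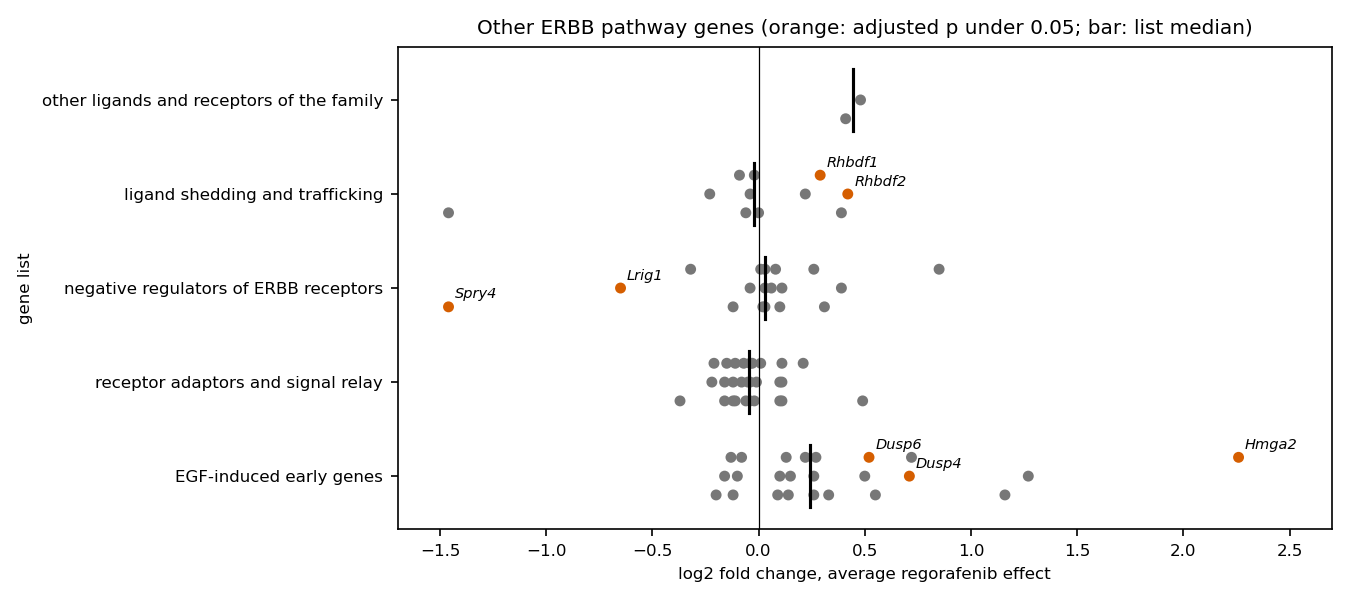
Log2 fold change in the average regorafenib effect for each tested gene of 5 lists of the ERBB pathway (1 point per gene, vertical offsets carry no meaning), with a bar at the list median. Orange points have an adjusted p under 0.05 by edgeR and are named: Rhbdf1, Rhbdf2, Dusp6, Dusp4 and Hmga2 above 0, Spry4 and Lrig1 below.

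Markers of the cells that the tumours could hold were tested in the average regorafenib effect, which called 6.16% of all genes higher and 3.32% lower. Of 12 fibroblast markers 1 fell (Lum), of 10 endothelial markers 3 fell (Emcn, Cldn5 and Tie1), and of 18 squamous markers 1 fell (Krt14, by 0.52 on the log2 scale, adjusted p = 0.0303 by edgeR). Itgb4, a squamous marker, lay in the other direction at 0.45 (adjusted p = 0.0543), and in the combination against vehicle it rose by 0.69 (adjusted p = 0.0489 by edgeR). Of 7 tested neutrophil markers 1 rose (Trem1). Of 10 macrophage, 10 T and NK cell and 8 tested mast cell and innate lymphoid markers, 0 passed. Over the 12 fits that left out 1 library, the calls on Emcn and Cldn5 were kept in 12, Lum and Tie1 in 7, Krt14 in 6 and Trem1 in 3, and without regorafenib 1 and combination 2 together only that on Emcn was kept of these 6. No marker was at 0 in all libraries. The part of these cells in the levels of the ligands, of Rhbdf1, Rhbdf2 and Spry4 was not tested.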

How the data were processed

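The authors deposited 1 table of raw read counts per Ensembl gene for the 12 libraries. Per the labels' protocols, libraries were made with a TruSeq stranded mRNA kit; per the submitters' processing notes, cutadapt 2.4, STAR 2.7.2a and GRCm38 were used. The counting tool, annotation and strand setting are not given in the sources used here. Symbols came from GENCODE M21. Counts were filtered with filterByExpr (minimum 10, total 15; 99.91% to 99.94% of counts kept), scaled by TMM and fitted in edgeR 4.0.16 (R 4.3.3) with 4 group means (robust quasi-likelihood, 8 residual degrees of freedom, biological coefficient of variation 0.227). Fold changes are log2 values computed from these deposited counts, with a 95% interval from the F statistic. Alternatives were DESeq2 1.42.0, its size factors, no filter, only the compared groups, a replicate block and leaving out libraries. Scaling by total counts was applied to levels only, not to the tests. Replicates differed beyond sampling noise. The fit was tested on simulated data for 16974 genes, with 10 false calls in the average regorafenib effect. The text names the members, the other family genes, the genes of each list with the smallest p and the 3 genes most correlated with each member. Adam17, named after its values were seen, is an exception, as are Spry1, Spry2 and Krt5. Members and lists were chosen with earlier results of these data known.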

Additional observations from a re-analysis of the deposited data

How the results depend on the processing

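In the average regorafenib effect, 1 member passed; this was 0 with a replicate block (Hbegf log2 fold change 0.96, adjusted p = 0.0897 by edgeR), 0 with regorafenib 1 and combination 2 both left out, and 0 to 2 when each library was left out in turn. The labels do not say whether the replicate numbers pair the samples. Same-numbered deviations from the group means correlated between -0.657 and 0.63 over 18 pairs, 2 of them over 0.1. With 3 libraries per group, these correlations cannot decide whether a pairing exists. The combination against vehicle, with 0 members, had 1 by DESeq2, 1 with the 6 compared libraries only, and 0 to 1 without single libraries; the combination against anti-PD1, with 0, had 1 by DESeq2 and 0 to 1. Adjusted p for Hbegf in the average regorafenib effect was 0.00237 by DESeq2, 0.036 with its size factors and 0.0485 without a filter. With the replicate block, the calls on Lrig1 (adjusted p = 0.0692), Dusp4 (0.0628), Hmga2 (0.0835), Krt14 (0.0752) and Tie1 (0.0602) in the average regorafenib effect were lost, as were those on Egf (0.0759), Rhbdf2 (0.0873), Spry4 (0.0558), Cbl (0.0865), Hras (0.0709) and Itgb4 (0.108) in the combination against vehicle. Lum lost its call with no filter (0.0748).

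Estimates that turned sign were near 0 or rested on the 2 libraries. With both left out, Areg, Ereg and Btc turned to -0.45, -0.24 and -0.28 in the average regorafenib effect and -0.93, -0.20 and -0.41 against vehicle in the combination, and Hbegf to -0.05 under regorafenib alone. Without single libraries, Erbb3 ranged from -0.21 to 0.05 in the average effect; in the combination against vehicle Egfr ranged from -0.11 to 0.03, Erbb2 from -0.05 to 0.03, Areg from -0.94 to 0.64, Ereg from -0.20 to 1.1 and Btc from -0.41 to 0.55; Hbegf under regorafenib alone ranged from -0.05 to 0.84.

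Over all genes, the average regorafenib effect called 1610, against 959 without a filter, 504 with the block, 449 without both libraries, 2808 by DESeq2 and 460 to 2048 without single libraries. The combination against vehicle called 1246, against 663, 11, 0, 2614 and 1 to 1517 under the same settings and 2068 with its 6 libraries only. The combination against anti-PD1 called 326, against 0 with the block, 2 without both libraries, 0 with its 6 libraries only, 1202 by DESeq2 and 0 to 432. Regorafenib against vehicle called 1, against 425 by DESeq2. The cause was not tested. Scaling by DESeq2's size factors or total counts changed member levels by at most 0.859% and 3.14%.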
